A study of Homo sapiens with 16 samples.

Results

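The IL4 response of the AAVS control pools was measured in 8 of the 16 RNA-seq libraries of the study, 4 treated with IL4 against 4 left untreated, paired within 4 established human B-cell lymphoma lines. The lines are SUDHL4, SUDHL10, OCILY7 and DOHH2. In each line the AAVS integration site, a locus that is cut as a control because its disruption is not expected to alter the cell, was targeted with a lentiviral Cas9 vector and a set of 4 guides, and the labels give the genotype as AAVS -/-. The cells were kept as pools of targeted cells and not as single clones. Each AAVS pool was cultured for 4 h without IL4 (AAVS baseline) or with 10 ng/ml of IL4 (AAVS IL4), and the other 8 libraries are CREBBP-targeted pools of the same lines under the same conditions (genotype CREBBP -/-), used here only to show where the AAVS pools differ. All 16 libraries thus carry the vector and Cas9, and each line gave 1 library per condition, so that n = 4 lines in every group. Values of a group are listed throughout in the order SUDHL4, SUDHL10, OCILY7, DOHH2.

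IL4 is a cytokine made by T follicular helper cells and other cells, and B cells meet it in the germinal centre. It binds a receptor built from IL4R and the common gamma chain IL2RG, which activates the kinases JAK1 and JAK3. These phosphorylate STAT6, which enters the nucleus, binds DNA at a TTC and a GAA separated by spacer bases, and acts with coactivators such as the acetyltransferase CREBBP. In B cells IL4 is known for raising the low-affinity IgE receptor FCER2 (CD23), MHC class II and its own receptor, for switching to IgE, and for feedback inhibitors of the SOCS family such as CISH and SOCS1.

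To tell changes in genes that the lines already express from transcripts that are new to the AAVS IL4 libraries, the 62710 genes were split by whether they reached 1 CPM (1 count per 1000000 counts of the library, not corrected for gene length) in any of the 12 libraries outside the AAVS IL4 group. The 17676 genes that did are called expressed here, and the remaining 45034 are called new. The total counts were 40779545 to 56115623 in the AAVS baseline libraries and 19649735 to 47716763 in the AAVS IL4 libraries, lowest in OCILY7. The B-cell genes MS4A1, CD79A and PAX5 were present in all 16 libraries, at no less than 588, 213 and 150.3 CPM. CREBBP RNA did not separate the pools, at 205 to 359.6 CPM in the AAVS baseline, 190.5 to 379 CPM in the AAVS IL4 and 69.9 to 278 CPM in the CREBBP libraries, so the counts do not check the targeting, which the study checked on protein. For replicates 2 and 3 the titles name OCILY7 and SUDHL10 in the opposite order to the cell line entries and file names, and the cell line entries are followed here. As a measure of difference between lines, genes at 10 CPM or above in a library but below 0.5 CPM in its partner were counted. Outside the AAVS IL4 group they numbered 1 to 17 for pairs among the SUDHL4, OCILY7 and DOHH2 libraries. For pairs with a SUDHL10 library they numbered 149 to 235, so the libraries of the former lines were alike there by this measure. Within the AAVS IL4 group the counts were 9 to 68 among the former lines and 78 to 106 with SUDHL10. Whether SUDHL4, OCILY7 and DOHH2 are distinct cultures was not tested. If they are not, n = 4 is too high and the p-values are too small. The AAVS IL4 libraries also stood apart from the other 12 in T-cell, epithelial and haemoglobin genes, which B-cell lines seldom make. Many immunoglobulin variable segments were present in SUDHL4 and OCILY7 with IL4. IGHM, a B-cell gene, was near absent outside the AAVS IL4 libraries, with values given below. Whether these libraries hold RNA of another sample was not tested, and it cannot be told apart here from an effect of IL4, so every call below is a difference between these libraries.

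The promoters of several IL4 targets carry the letters that STAT factors bind, and they are shown here for the core IL4 programme, the genes listed by the study as IL4-induced in primary normal and follicular lymphoma B cells. The RefSeq promoter windows (GRCh38.p14, 250 bases before to 50 after the gene start) were searched for TTCNNNNGAA, the spacing that STAT6 prefers, and TTCNNNGAA, the spacing shared by other STAT factors. Both patterns read the same on either strand. Of 33 core genes 25 matched a window, of which 3 (12%) held TTCNNNNGAA and 4 (16%) held TTCNNNGAA, against 6.365% and 7.881% of all 27305 windows. Of the 213 expressed genes called higher with IL4, 163 matched, with 11 (6.748%) and 8 (4.908%). These matches are a description of the letters and not of binding, and the windows of IL4R, NFIL3, QSOX1 and SOCS1 hold neither pattern. The windows follow RefSeq starts, which for some genes, among them NFIL3, IL4R and FCER2, differ from the GENCODE positions printed below. For NFIL3 the window, chr9:91424577-91424876, lies wholly upstream of the GENCODE gene. The following 4 windows belong to core genes or classic targets called higher in the AAVS pools. Each runs 5′ to 3′ from 250 bases before the start to the first 10 bases after it, with the matches in capitals.
CISH, chr3:50611765-50612024, minus strand: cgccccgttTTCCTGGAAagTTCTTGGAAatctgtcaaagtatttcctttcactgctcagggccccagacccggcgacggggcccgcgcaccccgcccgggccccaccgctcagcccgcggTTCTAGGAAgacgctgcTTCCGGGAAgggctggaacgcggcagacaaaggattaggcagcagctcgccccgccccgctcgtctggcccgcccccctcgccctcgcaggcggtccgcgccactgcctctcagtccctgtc
MOB3C, chr1:46616802-46617061, minus strand: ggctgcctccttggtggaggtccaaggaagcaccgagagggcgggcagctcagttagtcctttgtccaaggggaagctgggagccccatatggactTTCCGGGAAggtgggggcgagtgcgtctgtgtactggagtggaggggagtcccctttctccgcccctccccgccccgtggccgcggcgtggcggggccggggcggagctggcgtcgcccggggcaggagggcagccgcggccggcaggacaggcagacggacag
FCER2, chr19:7702122-7702381, minus strand: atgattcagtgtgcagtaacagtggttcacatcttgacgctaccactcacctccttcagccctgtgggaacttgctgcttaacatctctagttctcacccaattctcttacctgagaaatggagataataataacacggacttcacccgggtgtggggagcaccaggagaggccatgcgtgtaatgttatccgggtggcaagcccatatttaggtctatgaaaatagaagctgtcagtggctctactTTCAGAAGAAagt
TREML2, chr6:41201140-41201399, minus strand: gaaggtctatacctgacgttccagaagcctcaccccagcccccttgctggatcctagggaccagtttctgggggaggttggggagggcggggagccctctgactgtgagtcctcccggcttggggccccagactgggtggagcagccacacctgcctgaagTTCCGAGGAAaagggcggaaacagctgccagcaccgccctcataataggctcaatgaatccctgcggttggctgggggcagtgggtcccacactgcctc
CISH, an inhibitor of cytokine receptor signalling, holds 4 copies of TTCNNNGAA in 2 close pairs. MOB3C, a kinase adaptor, has 1 copy of the same spacing. FCER2 and TREML2, a receptor of the TREM family, each have 1 copy of TTCNNNNGAA, which in FCER2 spans the RefSeq start.

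The AAVS IL4 libraries had higher RNA of many genes than the AAVS baseline libraries and lower RNA of very few. Among the 17633 expressed genes that could be tested, 213 were called higher (1.21%) and 7 lower (0.0397%), with edgeR's quasi-likelihood test, the line as a block and a Benjamini-Hochberg adjusted p under 0.05. All 213 were higher in 4 of 4 lines and all 7 were lower in 4 of 4. The median log2 fold change of all expressed genes tested was -0.15, with 39.3% positive, so the calls stand against a slight downward shift of the rest, which ranged from -0.15 to -0.02 over the scalings tried. Among the new genes, 5961 could be tested and 554 were called higher (9.29%). None of them was called lower with edgeR (29 at an unadjusted p under 0.05, 2 with DESeq2 and 0 with limma-voom). The split caps the new genes at 1 CPM outside the AAVS IL4 group, so higher calls among them were favoured in advance. Their counts and adjusted p-values, here and below, describe these libraries and are no test of direction. Over both classes 767 of 23594 genes were called higher (3.25%) and 7 lower (0.0297%), and this total carries the same bias. Of the 213, 192 are protein coding and 15 are long noncoding RNAs. They are not all highly expressed genes: 92 never reached 5 CPM outside the AAVS IL4 group, and 29 never reached 1 CPM in an AAVS baseline library. A stricter view keeps genes at 5 CPM or more in each of the 4 AAVS baseline libraries, of which 8871 were tested, 51 were called higher (0.575%) and 5 lower (0.0564%). Their median log2 fold change was -0.26, with 24.3% positive. The count of 213 rested on which lines were in the fit: it was 22 without SUDHL4, 565 without SUDHL10, 137 without OCILY7 and 121 without DOHH2. It was 1094 with DESeq2.

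**Figure D1:**
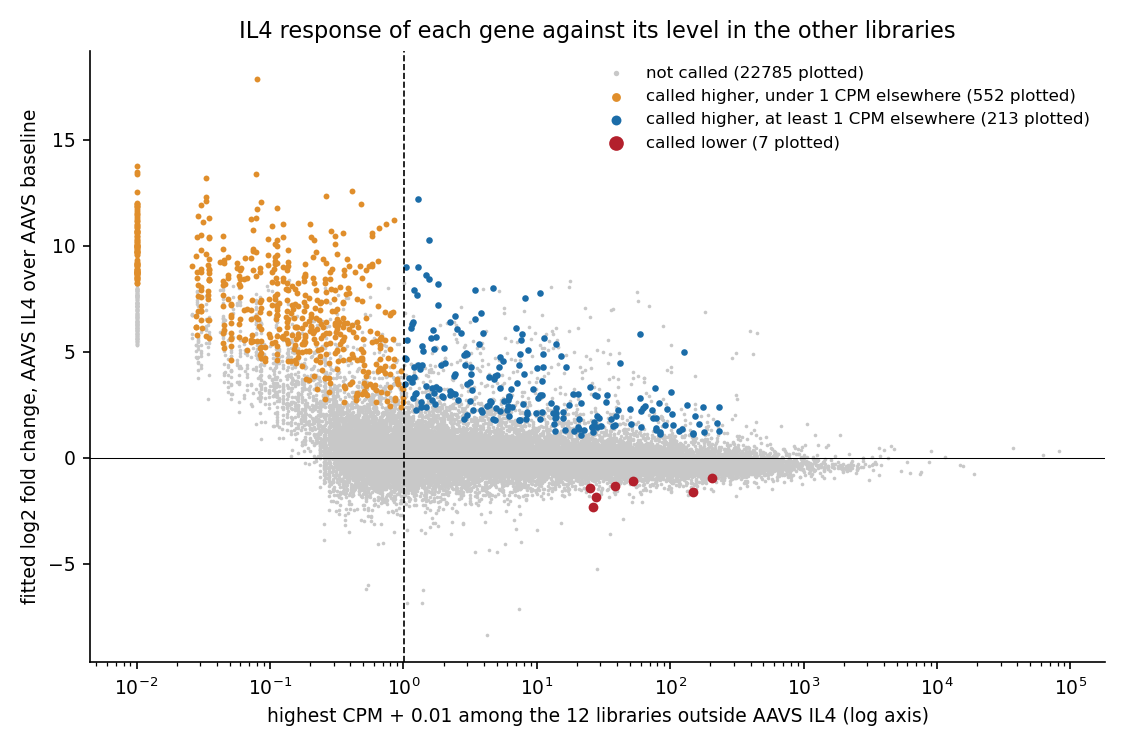
Fitted log2 fold change of IL4 over baseline in the AAVS pools (vertical axis) against the highest CPM of the gene in the 12 libraries outside the AAVS IL4 group (horizontal log axis, CPM + 0.01). Each point is a tested gene, the dividing line stands at 1 CPM, and the called genes lie almost all above 0, with the largest fold changes on the left, among the genes under 1 CPM elsewhere.

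The called genes did not rise by the same amount in the 4 lines. The median difference in log2(CPM + 1) over the 213 genes was 2.47 in SUDHL4, 1.65 in SUDHL10, 3.28 in OCILY7 and 1.70 in DOHH2, against 0.06, -0.05, 0.06 and -0.01 over all expressed genes tested. Of the 213, the highest AAVS IL4 library was OCILY7 for 201, and the lowest was SUDHL10 for 125 and DOHH2 for 78. The rise varied least in its ratio between OCILY7 and SUDHL4. Set against the rise in SUDHL4, the rise in CPM in OCILY7 had a median of 2.2 (quartiles 1.91 to 2.48) over these 213 genes and of 2.2 (1.8 to 2.74) over the 554 new genes. For genes at 5 CPM or more in each baseline library the ratio was 2.17 (1.97 to 2.38). The spread was wider in SUDHL10, with a median of 0.409 (0.25 to 0.636) for the 213 and 0.28 (0.0944 to 0.509) for the new genes, and in DOHH2, with 0.473 (0.287 to 0.794) and 0.273 (0.119 to 0.63). OCILY7 with IL4 was also the library with the lowest total count. Markers of T cells were also highest in OCILY7 and next in SUDHL4 with IL4. The summed level of 14 T-cell genes was 10.5, 25.9, 14.4 and 5.46 CPM untreated and 141, 88, 286 and 42.4 CPM with IL4, and 2.61 to 38.6 CPM in the CREBBP libraries. In bulk RNA, fewer or more cells of a type and less or more RNA per cell cannot be told apart, and the part of these transcripts, or of RNA from another source, in the calls was not tested.

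**Figure D2:**
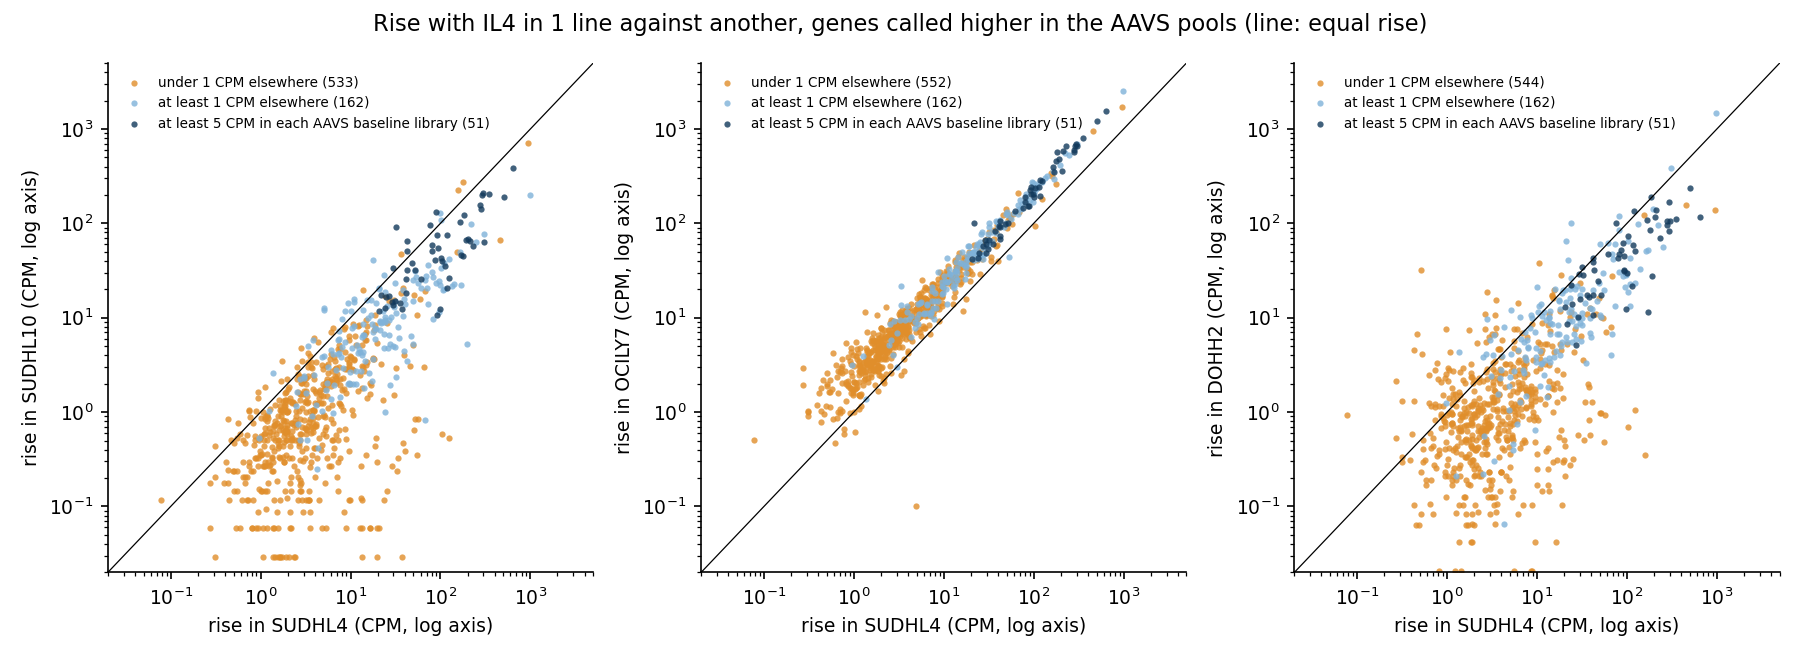
Rise in CPM with IL4 in SUDHL10, OCILY7 and DOHH2 (vertical axes, log scale) against the rise in SUDHL4 (horizontal axis, log scale), for the genes called higher, with a point per gene coloured by class. In OCILY7 the points follow a narrow band about 2.2 times the rise in SUDHL4 in all 3 classes, while in SUDHL10 and DOHH2 they spread widely and lie mostly below the line of equal rise.

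The receptor and its first kinase rose with IL4, whereas STAT6 itself did not pass the test. IL4R (chr16:27313668-27364778, plus strand on GRCh38), the ligand-binding chain, was at 86.6, 108, 65.1 and 126 CPM untreated and 437, 313, 870.5 and 239 CPM with IL4. Every line was higher with IL4 and the groups did not overlap, with a log2 fold change of 1.95 ± 0.40 and an adjusted p = 0.0496. The value after ± is, here and below, an approximate SE. It is the size of the fitted fold change divided by the square root of the F statistic of edgeR's test. JAK1 was at 97.5, 118, 147 and 79.7 CPM untreated and 302, 186, 505 and 197 CPM with IL4, again without overlap (1.18 ± 0.22, adjusted p = 0.0354). IL4R and JAK1 each kept the call in only 1 of the 4 fits with a line left out. STAT6 was at 595, 274, 663 and 323 CPM untreated and 572, 334, 416 and 369 CPM with IL4. It was higher with IL4 in SUDHL10 and DOHH2 and lower in SUDHL4 and OCILY7, with a fold change of -0.23 ± 0.29 (adjusted p = 0.689). IL2RG, the shared gamma chain, and STAT3 were higher in 4 of 4 lines without overlap but missed the threshold (adjusted p = 0.0665 and 0.057), as did JAK3 at 1.82, 53.9, 2.67 and 1.93 CPM untreated and 64.4, 88.7, 133 and 24.3 CPM with IL4 (0.0536). In all, 3 of 19 expressed members of the list of IL4 receptor, JAK, STAT and SOCS genes were called (IL4R, JAK1 and CISH). In this list 15 were positive, with a median log2 fold change of 0.93. The shares over all expressed genes tested were 1.21% called higher and 39.3% positive. Among the 5 new members, 4 were called: IL13RA1, which pairs with IL4R in the type II receptor, STAT4, the docking protein IRS2 and the inhibitor SOCS3. SOCS3 was at 0.107, 0, 0.287 and 0.0191 CPM untreated and 49.5, 5.16, 143 and 16.2 CPM with IL4 (8.75 ± 0.39, adjusted p = 0.000247).

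The feedback inhibitor CISH (chr3:50606489-50611774, minus strand), with the 4 STAT-type matches shown above, was at 0.0535, 0.221, 0.041 and 0.286 CPM untreated and 22.9, 9.25, 55.6 and 9.51 CPM with IL4. All AAVS IL4 libraries were far above all baseline libraries, OCILY7 most, with a log2 fold change of 6.85 ± 0.87 and an adjusted p = 0.0104, which became 0.0738 without SUDHL4. SOCS1, which blocks JAK kinases, was at 38, 14.2, 66.4 and 24.6 CPM untreated and 64.7, 62.2, 73.6 and 63 CPM with IL4, higher in 4 of 4 lines but with overlapping groups (0.93 ± 0.40, adjusted p = 0.275). Its levels with IL4 were nearly equal among the lines, and the difference lay in their baseline.

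Of the 27 expressed members of the core IL4 programme, 10 were called higher, 26 were positive and the median log2 fold change was 2.03, against 1.21% called and a median of -0.15 over all expressed genes. Of the 11 members at 5 CPM or more in each AAVS baseline library, 2 were called. The list was drawn by the study from primary B cells and not from these libraries. The called members were AMIGO2, CISH, CYSLTR1, DOCK10, MOB3C, NFIL3, QSOX1, SNX8, TREML2 and VDR. NFIL3 (chr9:91409045-91423832, minus strand), a bZIP repressor, was at 8.38, 20.3, 6.9 and 10.2 CPM untreated and 69.7, 45.8, 142 and 57.7 CPM with IL4, with no overlap (2.61 ± 0.44, adjusted p = 0.0249). MOB3C (chr1:46607719-46616811, minus strand) was at 0.303, 5.22, 0.903 and 2.25 CPM untreated and 61.2, 25.7, 129.7 and 64.2 CPM with IL4. Its baseline was highest in SUDHL10, where its level with IL4 was lowest, and the fold change was 5.34 ± 0.91 (adjusted p = 0.0262). QSOX1, a sulfhydryl oxidase of the secretory pathway, was at 7.72, 1.47, 5.5 and 11.6 CPM untreated and 35.3, 6.75, 60.9 and 33.5 CPM with IL4. It rose in each line, although SUDHL10 with IL4 stayed below 2 of the baseline libraries (2.17 ± 0.31, adjusted p = 0.0142). DOCK10, a guanine nucleotide exchange factor, was at 11.2, 0.662, 3.49 and 3.3 CPM untreated and 145, 22.2, 305 and 101 CPM with IL4 (4.87 ± 0.47, adjusted p = 0.00416). SNX8, a sorting nexin, changed least among the called members, and lay at 47.3 to 76.5 CPM untreated and 139 to 220.4 CPM with IL4 (1.24 ± 0.22). The vitamin D receptor VDR lay at 1.37 to 3.67 CPM untreated and 4.12 to 32.5 CPM with IL4 (1.95 ± 0.32). Of the 6 members in the new class, HLX, IGSF3, IL6, SPINT2 and TMEM71 were called and CLEC4A was not, at 0.481, 0.147, 0.267 and 0.821 CPM untreated and 2.26, 0.53, 4.58 and 1.7 CPM with IL4 (2.10 ± 0.57, adjusted p = 0.115). IL6 was at 0.0713, 0, 0.123 and 0 CPM untreated and 32.3, 2.95, 81.9 and 3.58 CPM with IL4, and IGSF3 had no count in the 4 baseline libraries and was at 3.47, 0.147, 6.06 and 7.82 CPM with IL4. The called count of 10 was 1 without SUDHL4, 18 without SUDHL10, 7 without OCILY7 and 3 without DOHH2, while the median stayed between 1.58 and 2.42 in these fits.

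**Figure D3:**
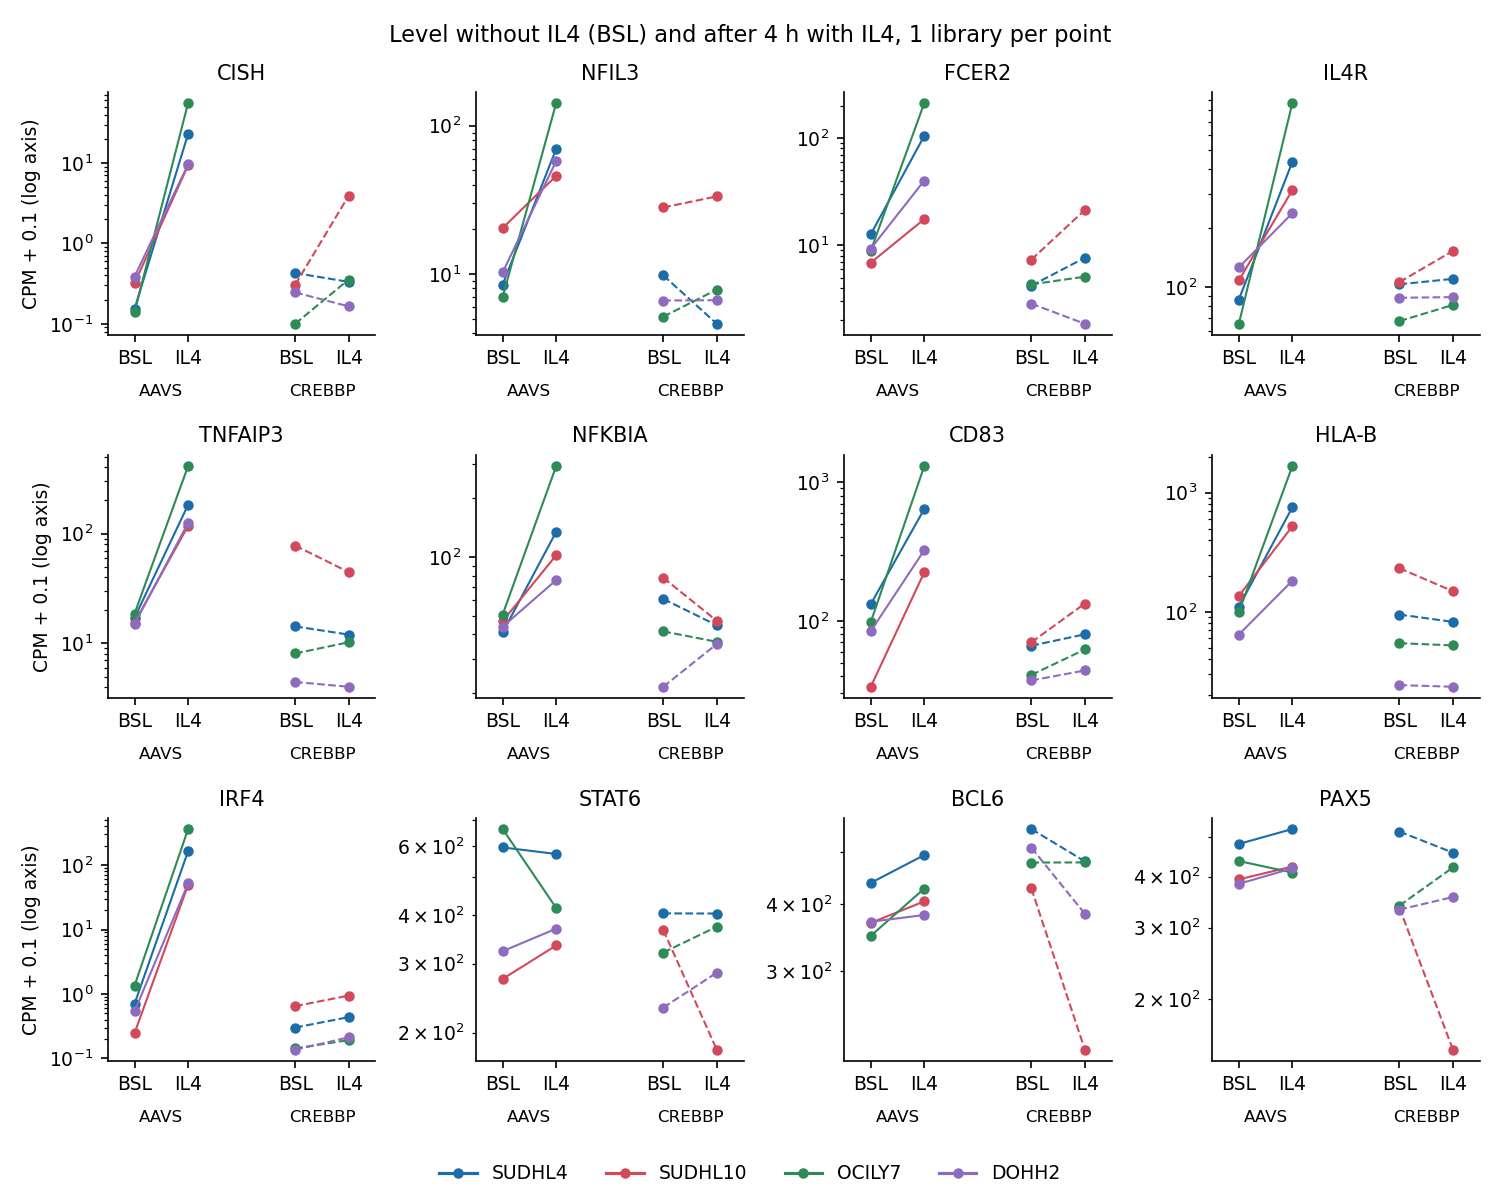
CPM (log axis, CPM + 0.1) of 12 genes at baseline and with IL4, with a line for each pool, solid for AAVS and dashed for CREBBP pools and coloured by cell line. The AAVS pools climb in all 4 lines for CISH, NFIL3, FCER2, IL4R, TNFAIP3, NFKBIA, CD83, HLA-B and IRF4, and STAT6, BCL6 and PAX5 move little, STAT6 and PAX5 in both directions.

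Classic IL4 targets of B cells rose in part. FCER2 (chr19:7688758-7702146, minus strand), the low-affinity IgE receptor CD23, was at 12.6, 6.79, 8.83 and 9.22 CPM untreated and 105, 17.5, 212 and 40.1 CPM with IL4. It rose in every line, least in SUDHL10 and most in OCILY7 (2.60 ± 0.45, adjusted p = 0.0288). IGHE, the IgE constant gene whose germline transcript precedes switching, was at 0.552, 0, 0.349 and 2.69 CPM untreated and 24.3, 4.8, 43.8 and 103 CPM with IL4, highest in DOHH2 (5.89 ± 0.54, adjusted p = 0.00359). The transcription factor BATF, needed for class switching, lay at 0.63 to 3.37 CPM untreated and 4.48 to 18.3 CPM with IL4 (2.13 ± 0.33, adjusted p = 0.0189). Of 13 expressed members 4 were called (FCER2, IL4R, XBP1 and BATF), 11 were positive and the median was 1.95. By comparison, 1.21% of all expressed genes tested were called higher and 39.3% were positive. All 3 new members were called: the chemokines CCL17 and CCL22, which attract CCR4-bearing T cells, and the receptor TNFRSF13B (TACI). CCL22 was at 0.125, 0, 0.0205 and 0.0191 CPM untreated and 6.28, 1.18, 12.5 and 14.3 CPM with IL4, and CCL17 at 0.0356, 0, 0 and 0 CPM untreated and 2.18, 0.0884, 2.29 and 5.39 CPM with IL4. Both chemokines were highest in DOHH2, whereas most new transcripts were highest in OCILY7.

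Classical MHC class I genes rose, while no MHC class II gene passed the test. HLA-B, a classical class I heavy chain, was at 110.4, 136, 99.7 and 64.5 CPM untreated and 753, 522, 1669 and 182 CPM with IL4 (2.39 ± 0.38, adjusted p = 0.0212). HLA-C was at 14.7, 26.9, 23.8 and 6.24 CPM untreated and 206, 93.1, 506 and 33.8 CPM with IL4 (2.95 ± 0.40, adjusted p = 0.0128). In both the groups did not overlap, and DOHH2 was the lowest library in either group. HLA-E was called as well (1.22 ± 0.25, adjusted p = 0.0487), and the new gene HLA-F went from at most 0.147 CPM to 51, 17.4, 128 and 10.2 CPM. These genes have near-identical copies, and how well the counting split shared reads was not tested, so the share of each is uncertain. The transporter TAP1 missed the threshold at 12.8, 47.7, 16.4 and 14.7 CPM untreated and 66.5, 54.9, 127 and 61.3 CPM with IL4 (adjusted p = 0.0655). Of 13 expressed class I and peptide loading genes 4 were called, 12 were positive and the median was 1.13. Among all expressed genes tested, 1.21% were called higher and 39.3% were positive. Of 15 class II genes, 0 were called with edgeR, with 7 higher at an unadjusted p under 0.05, 7 called higher with DESeq2 and 2 with limma-voom. Their median was 0.76 and 12 were positive. HLA-DRA, the alpha chain of HLA-DR, was at 1209.8, 432, 1198 and 821 CPM untreated and 2252, 1095, 3875 and 1614 CPM with IL4, higher in 4 of 4 lines (1.06 ± 0.27, adjusted p = 0.0934). CIITA, the master coactivator of class II genes, was at 184, 327, 167 and 199 CPM untreated and 448, 537, 686 and 312 CPM with IL4, also higher in 4 of 4 lines (1.0 ± 0.25, adjusted p = 0.0895). For both genes the groups overlapped.

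NF-kappaB feedback genes and activation receptors were called in part, with 7 of the 8 called NF-kappaB genes but 1 of the 4 called receptors at 5 CPM or more in each AAVS baseline library. TNFAIP3 (chr6:137867214-137883314, plus strand), the deubiquitinase A20 that restrains NF-kappaB, was at 17.1, 15.4, 18.6 and 15 CPM untreated and 182, 118, 411 and 125 CPM with IL4. The 4 baseline values were close to each other and each line rose (3.30 ± 0.27, adjusted p = 0.00243). NFKBIA, the inhibitor IkB-alpha, was at 40.9, 46.7, 50.5 and 43.8 CPM untreated and 135, 102, 293 and 76 CPM with IL4 (1.38 ± 0.26, adjusted p = 0.0379). It rose in each line without overlap, least in DOHH2. BIRC3, an inhibitor of apoptosis and ubiquitin ligase, was at 70.4, 41.3, 53.4 and 103 CPM untreated and 254, 163, 619 and 293 CPM with IL4 (2.04 ± 0.32, adjusted p = 0.0203). BCL2A1, an antiapoptotic BCL2 relative under NF-kappaB control, was at 3.55, 4.95, 2.28 and 2.6 CPM untreated and 35.4, 16.3, 102 and 13.9 CPM with IL4 (3.02 ± 0.55, adjusted p = 0.0324). With NFKB2, NFKBIE, TRAF1 and CYLD, 8 of 19 expressed members of the NF-kappaB list were called and 18 were positive, with a median of 1.33. The subunit REL was not among them, at 795, 371, 489 and 1261 CPM untreated and 984, 378, 1162 and 973 CPM with IL4 (0.13 ± 0.28, adjusted p = 0.812). Among 17 expressed activation and costimulation receptors, CD80, CD83, CD58 and IL2RA were called, 13 were positive and the median was 1.63. As background for both lists, 1.21% of all expressed genes tested were called higher and 39.3% were positive. CD83, a surface marker of activated B cells, was at 132, 33.4, 97.8 and 84.2 CPM untreated and 640.1, 224, 1306 and 323 CPM with IL4, without overlap (2.51 ± 0.31, adjusted p = 0.00975). CD80, a ligand of CD28, was at 0.285, 1.15, 0.205 and 1.83 CPM untreated and 20.9, 21.9, 48.1 and 21.7 CPM with IL4, nearly equal in all lines but OCILY7 (5.16 ± 0.69, adjusted p = 0.0118). CD86, the other CD28 ligand, had a negative fold change that was not called, at 117, 99.5, 121 and 74.1 CPM untreated and 74.6, 49.1, 34.7 and 83 CPM with IL4 (-0.99 ± 0.37, adjusted p = 0.226). The new TNF receptors TNFRSF9 and TNFRSF13B were called.

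Genes of the plasma cell axis were called in part. IRF4 (chr6:391739-411443, plus strand), a transcription factor of activated B cells and plasma cells, was at 0.606, 0.147, 1.25 and 0.439 CPM untreated and 165, 49.3, 362 and 51.7 CPM with IL4. It was at or near silence at baseline and rose in each line (7.66 ± 0.34, adjusted p = 0.000247), and it kept the call with any line left out. XBP1, a driver of secretory capacity, was at 20.7, 50.2, 25.6 and 9.77 CPM untreated and 138, 70.7, 315 and 68.8 CPM with IL4 (2.29 ± 0.46, adjusted p = 0.0441), with the smallest change in SUDHL10, where its baseline was highest. ELL2, an elongation factor of immunoglobulin secretion, was at 4.92, 0.196, 4.17 and 5.21 CPM untreated and 86.6, 9.84, 194 and 35.7 CPM with IL4 (4.26 ± 0.51, adjusted p = 0.00798). PRDM1 (BLIMP1), a repressor that drives plasma cell differentiation, is a new gene and was at 0.0713, 0, 0.144 and 0.172 CPM untreated and 38, 20.5, 80.7 and 2.03 CPM with IL4 (7.67 ± 1.13, adjusted p = 0.016). Of 12 expressed plasma cell and secretory genes 3 were called, 7 were positive and the median was 0.47. The background of all expressed genes tested was 1.21% called higher and 39.3% positive. JCHAIN, the joining chain of polymeric antibodies, was at 594, 72, 642 and 656 CPM untreated and 689.9, 195, 1364 and 515 CPM with IL4 (0.43 ± 0.35, adjusted p = 0.527), and the new gene SDC1, the surface marker CD138, at 0.107, 0, 0.0205 and 0.401 CPM untreated and 2.18, 0.265, 4.99 and 0.147 CPM with IL4 (adjusted p = 0.277). The summed level of the 6 plasma cell markers was 193 to 771 CPM at baseline and 282 to 1577 CPM with IL4.

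Lineage and germinal centre genes gave no call with edgeR. Most of them, and all 21 genes of the B-cell receptor list, were at 5 CPM or more in each AAVS baseline library. All genes at that level had a median of -0.26 with 24.3% positive, and the list medians of -0.37 below lie close to it. Of 21 expressed lineage antigens and factors, 0 were called, 6 were positive and the median was -0.37; 2 were higher and 4 lower at an unadjusted p under 0.05, with 1 and 1 called by DESeq2 and 0 by limma-voom. PAX5, which maintains B-cell identity, was at 481, 394, 437 and 384 CPM untreated and 524, 423, 409 and 419 CPM with IL4 (-0.10 ± 0.23, adjusted p = 0.825). Of 21 germinal centre genes, 0 were called, 7 were positive and the median was -0.09, with 2 higher and 4 lower at an unadjusted p under 0.05, 2 and 2 called by DESeq2 and 0 by limma-voom. BCL6, the repressor that defines germinal centre B cells, was at 439, 369, 349 and 371 CPM untreated and 494, 405, 428 and 382 CPM with IL4 (-0.01 ± 0.21, adjusted p = 0.988). The CPM was slightly higher with IL4 in 4 of 4 lines with overlapping groups, whereas the fitted value on TMM-scaled counts was near 0 and was positive under other scalings. The 21 B-cell receptor signalling genes had a median of -0.37 and 0 calls with edgeR, DESeq2 or limma-voom, with 3 lower at an unadjusted p under 0.05. The complement receptors CR1 and CR2, listed with the lineage antigens but new here, were called: CR2 was at 0.481, 0.0245, 0.0205 and 0.229 CPM untreated and 27, 15, 42.2 and 7.9 CPM with IL4.

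Genes typical of naive and memory B cells outside the germinal centre were called in 8 of 20 expressed members, with 18 positive and a median of 1.57. None of the 8 was among the 6 members at 5 CPM or more in each AAVS baseline library. Over all expressed genes tested, 1.21% were called higher and 39.3% were positive. AHNAK (chr11:62433542-62556235, minus strand), a giant scaffold protein of memory B cells, was at 5.47, 0.613, 10.5 and 5.67 CPM untreated and 989.5, 199, 2545 and 1466 CPM with IL4. No baseline library came near an IL4 library, and the fitted log2 fold change was 7.75 ± 0.36 (adjusted p = 0.000254). VIM, the intermediate filament vimentin, was at 1.18, 4.93, 1.17 and 0.916 CPM untreated and 308, 81.7, 695 and 391 CPM with IL4 (7.52 ± 0.97, adjusted p = 0.0107). KLF2, a factor of quiescent and trafficking lymphocytes, was at 0.285, 0.711, 0.595 and 0.458 CPM untreated and 40.7, 14.8, 91.3 and 12.7 CPM with IL4 (5.72 ± 0.56, adjusted p = 0.00416). FCRL5, a receptor of memory B cells, was at 2.23, 0.49, 1.27 and 0.401 CPM untreated and 111, 38.4, 262 and 43.4 CPM with IL4 (6.41 ± 0.41, adjusted p = 0.000818), and FCRL3 was at 77.3, 3.83, 91.3 and 87.6 CPM untreated and 272, 9.04, 502 and 229 CPM with IL4 (1.56 ± 0.22, adjusted p = 0.0145), with SUDHL10 the lowest in each group. The new members CD44, PLAC8 and TNFRSF13B were called too. AHNAK, VIM and KLF2 are not restricted to B cells, and the T-cell markers given above were higher in the same libraries. The part of other cells in these values was not tested.

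The homing receptors CCR7, S1PR1 and GPR183, which guide B cells to T-cell zones, out of tissue and to the outer follicle, were called. CCR7 was at 1.09, 0.687, 7.0 and 0.267 CPM untreated and 171, 23.1, 300.5 and 52.2 CPM with IL4, with the baseline of OCILY7 above the others (6.12 ± 0.55, adjusted p = 0.00322). GPR183 (EBI2) was at 16.7, 2.33, 13.1 and 17.3 CPM untreated and 114, 13.9, 179.9 and 46.8 CPM with IL4 (2.47 ± 0.34, adjusted p = 0.0126). S1PR1 had no count in SUDHL10 at baseline and 4.77 CPM with IL4, and over the 4 lines it lay at 0 to 5.05 CPM untreated and 4.77 to 81.7 CPM with IL4 (3.89 ± 0.70, adjusted p = 0.0313). For S1PR1 and GPR183 the groups overlapped, with SUDHL10 low in both. Receptors that confine B cells to the germinal centre were not called: S1PR2 was at 637, 259.8, 551 and 233 CPM untreated and 483, 178, 116 and 366 CPM with IL4 (-0.77 ± 0.51, adjusted p = 0.44), and P2RY8 had a fold change of -0.46 ± 0.36 (adjusted p = 0.514). Of 14 expressed homing and confinement receptors 3 were called, 9 were positive and the median was 0.31. For all expressed genes tested, 1.21% were called higher and 39.3% were positive. Of the 9 receptors at 5 CPM or more in each AAVS baseline library, 0 were called.

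**Figure D4:**
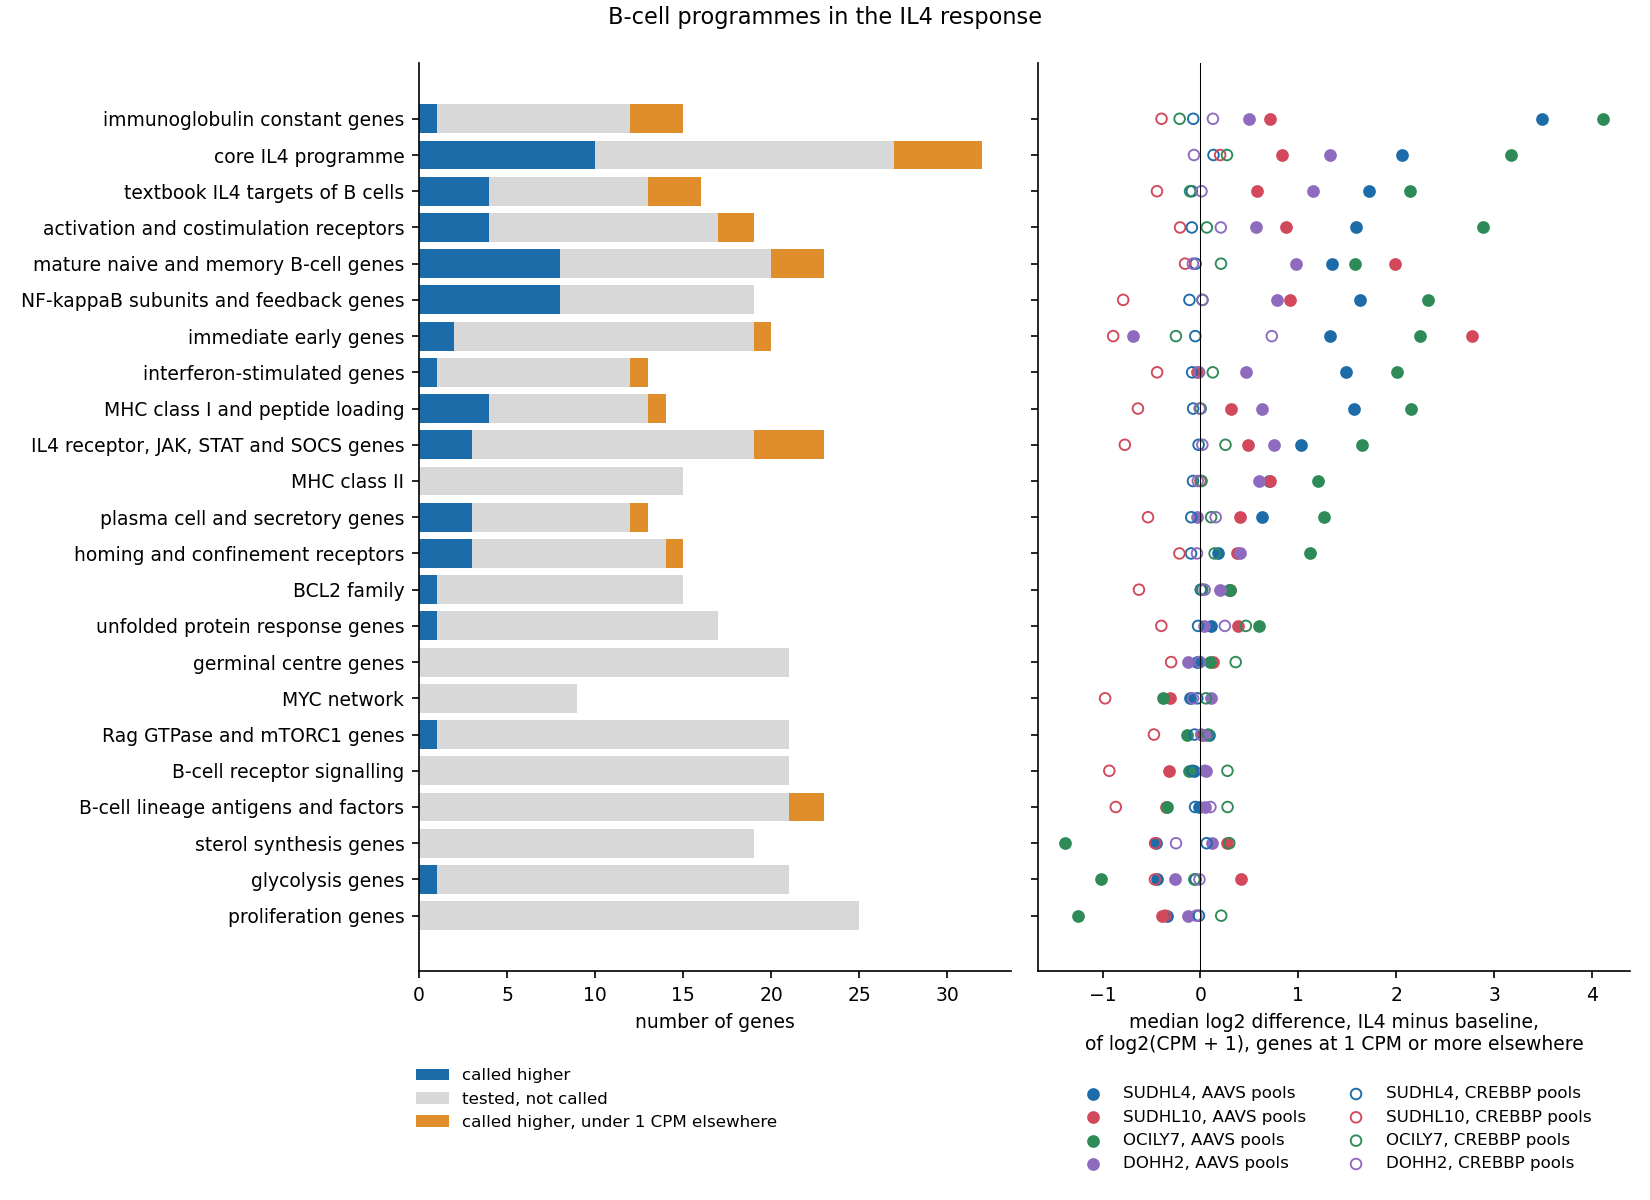
The 23 gene lists, with the number of expressed members called higher out of those tested (left) and the median difference in log2(CPM + 1) with IL4 in each line (right), as filled points for AAVS and open points for CREBBP pools. The AAVS points of OCILY7 and SUDHL4 lie farthest right for the core IL4, activation, MHC class I and NF-kappaB lists, and the proliferation and sterol lists lie left of 0 in OCILY7 and SUDHL4.

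Growth and metabolic genes gave few calls. As the background for these lists, all genes at 5 CPM or more in each AAVS baseline library had a median of -0.26 with 24.3% positive. Of 25 expressed proliferation genes 0 were called and 23 were negative, with a median of -0.76, 2 higher and 10 lower at an unadjusted p under 0.05, 2 higher and 3 lower with DESeq2, and 1 and 1 with limma-voom. MKI67, the Ki-67 antigen, was at 858, 1664, 1062 and 1140.1 CPM untreated and 641, 1040.1, 218 and 1177 CPM with IL4, lowest in OCILY7 with IL4 (-0.97 ± 0.46, adjusted p = 0.313). HMMR, a mitotic spindle protein, came nearest to a call at 27.4, 124, 33.1 and 56.5 CPM untreated and 21.4, 59.2, 19.4 and 31.7 CPM with IL4 (-0.92 ± 0.20, adjusted p = 0.0538). Sterol synthesis genes had negative fold changes in 19 of 19, with a median of -0.48 and no call by edgeR, DESeq2 or limma-voom, nor at an unadjusted p under 0.05. The lines did not share this direction in CPM. Their median difference in log2(CPM + 1) was -0.45 in SUDHL4 and -1.38 in OCILY7 but 0.27 in SUDHL10 and 0.12 in DOHH2. Of 21 glycolysis genes, 4 were positive and only the glucose transporter SLC2A3 was called, at 14.1, 4.46, 12 and 4.68 CPM untreated and 235, 104, 565 and 100.1 CPM with IL4 (4.48 ± 0.30, adjusted p = 0.000938), while SLC2A1, the widely used transporter, had 0.05 ± 0.35 (adjusted p = 0.951). MYC was at 215, 384, 222 and 122 CPM untreated and 198, 209.7, 156 and 135 CPM with IL4 (-0.51 ± 0.25, adjusted p = 0.328), and of 9 expressed genes of its network 0 were called by edgeR, DESeq2 or limma-voom, nor any at an unadjusted p under 0.05 (median -0.25).

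RRAGD, the Rag GTPase that the study followed as a link from IL4 to mTORC1, was at 16.4, 15.5, 11 and 17.3 CPM untreated and 19.4, 54.5, 20.4 and 17 CPM with IL4. It was higher with IL4 in SUDHL4, SUDHL10 and OCILY7 and slightly lower in DOHH2, and SUDHL10 stood far above the other IL4 libraries. The log2 fold change was 0.55 ± 0.36 and was not called (adjusted p = 0.439). Of 21 expressed Rag GTPase and mTORC1 genes 9 were positive, the median was -0.26, and FNIP2, a folliculin partner, was the only call, at 0.82, 1.54, 1.05 and 0.382 CPM untreated and 6.4, 4.57, 15.6 and 3.12 CPM with IL4 (2.69 ± 0.43, adjusted p = 0.0206). Of 17 expressed unfolded protein response genes XBP1 alone was called (median -0.01). Of 15 expressed BCL2 family genes BCL2A1 alone was called (median 0.03). As background for these lists, 1.21% of all expressed genes tested were called higher and 39.3% were positive. BCL2 itself was at 375, 1.03, 370.3 and 592 CPM untreated and 544, 188, 850.2 and 868 CPM with IL4, nearly silent in SUDHL10 without IL4 and at 188 CPM there with IL4 (1.49 ± 1.12, adjusted p = 0.493).

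Immediate early and interferon-stimulated genes were called in a minority. The background for both lists is all expressed genes tested, with 1.21% called higher and 39.3% positive. FOSL2, an AP-1 subunit, was at 4.21, 1.57, 5.62 and 6.38 CPM untreated and 53.4, 16.6, 107 and 29.9 CPM with IL4 (3.22 ± 0.32, adjusted p = 0.00441), and the orphan nuclear receptor NR4A3 was at 3.19, 0.907, 4.72 and 3.28 CPM untreated and 76.2, 15, 147 and 16.5 CPM with IL4 (3.83 ± 0.42, adjusted p = 0.00606). Both rose in each line without overlap. FOS and EGR1 differed in direction between lines and were not called, with FOS at 204, 9.56, 106 and 58 CPM untreated and 251, 141, 505 and 49.3 CPM with IL4 (adjusted p = 0.369). Of 19 expressed immediate early genes 2 were called and 17 were positive (median 1.3), and the new member NR4A2 was called. Of the 11 at 5 CPM or more in each AAVS baseline library, 0 were called. The median difference of the list in log2(CPM + 1) was 1.32 in SUDHL4, 2.77 in SUDHL10 and 2.25 in OCILY7 but -0.69 in DOHH2, where its summed level was 1313 CPM untreated and 946 CPM with IL4. IRF9, the DNA-binding subunit of the interferon response complex, was the only call among 12 expressed interferon-stimulated genes, at 14, 12, 17 and 20.7 CPM untreated and 49.6, 26.2, 77.4 and 38.1 CPM with IL4 (1.34 ± 0.23, adjusted p = 0.0275), with 10 positive and a median of 1.20. MX1, an antiviral GTPase, was at 0.0713, 5.71, 0.103 and 0 CPM untreated and 27.5, 5.54, 72.7 and 5.22 CPM with IL4 (6.82 ± 1.91, adjusted p = 0.124), level in SUDHL10 and higher with IL4 in the other lines. Of the 8 new members OASL was called.

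The largest fold changes among the expressed genes belonged mostly to genes that were nearly silent in the AAVS baseline libraries. By the rule for naming genes, the 15 largest were GLUL, SNX9, RTL6, TP53BP2, SPRY1, DUSP4, DSP, MYADM, ANXA2, SYNJ2, AHNAK, IRF4, VIM, TENM1 and CISH. GLUL, glutamine synthetase, had no count at baseline and was at 16.1, 2.59, 50.2 and 4.46 CPM with IL4, which is at least 883.8-fold higher than 3 counts over the 4 baseline libraries would be. SNX9, a sorting nexin of endocytosis, was at 0.0713, 0.196, 0 and 0 CPM untreated and 141, 23, 316 and 32.8 CPM with IL4 (10.27 ± 1.09, adjusted p = 0.00561). TP53BP2, a p53-binding protein, was at 0.0356, 0.27, 0.123 and 0.0382 CPM untreated and 70, 21.2, 178 and 42.2 CPM with IL4 (9.01 ± 0.78, adjusted p = 0.0029). MYADM, a membrane protein, was at 0.143, 0.27, 0.78 and 0 CPM untreated and 67.5, 25.4, 155 and 47.8 CPM with IL4, and DUSP4, a phosphatase of MAP kinases, was at 0, 0.981, 0 and 0 CPM untreated and 38.3, 20.5, 79.7 and 6.81 CPM with IL4. In each of these the IL4 libraries of SUDHL4 and OCILY7 were the highest. RTL6 and SPRY1 each rested on 1 baseline count, with ratios of pooled CPM of 803.2 (95% interval 143.5 to 31790) and 667.5 (95% interval 119.2 to 26430) that cover counting error only. Desmoplakin, DSP, an epithelial junction protein, went from at most 0.0616 CPM to 2.77, 0.501, 9.26 and 9.68 CPM.

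Among the genes with at least 5 CPM in each baseline library, whose change does not start from silence, further calls chosen after their values were seen show the range. LYST, a regulator of lysosomal trafficking, was at 10.6, 8.68, 8.56 and 8.44 CPM untreated and 124, 43.7, 249.5 and 30.1 CPM with IL4 (2.96 ± 0.45, adjusted p = 0.017). CFLAR, the inhibitor of death receptor signalling c-FLIP, was at 25.9, 6.23, 26.5 and 28.5 CPM untreated and 205, 51.3, 488 and 113 CPM with IL4 (2.89 ± 0.33, adjusted p = 0.0068). MAP3K8, a kinase upstream of ERK, was at 15.2, 37.7, 13.7 and 18.3 CPM untreated and 94.9, 96.5, 206 and 61.1 CPM with IL4 (2.23 ± 0.37, adjusted p = 0.0235). HILPDA, a lipid droplet protein, differed from the rest in that SUDHL10 was the highest IL4 library, at 9.05, 10.6, 7.53 and 22.8 CPM untreated and 41.1, 101, 73.7 and 51.1 CPM with IL4 (2.31 ± 0.38, adjusted p = 0.0245). KMO, an enzyme of tryptophan breakdown, was at 12.9, 20.1, 7.31 and 15.9 CPM untreated and 42.6, 53.3, 55.9 and 31.9 CPM with IL4 (1.59 ± 0.29, adjusted p = 0.0326), and ZFP36L1, an RNA-binding decay factor, at 146, 97.6, 148 and 112 CPM untreated and 442, 308, 833 and 279.8 CPM with IL4 (1.60 ± 0.24, adjusted p = 0.0164). IRF5, a transcription factor of innate signalling, was nearly equal in the lines at baseline, at 14.1, 15, 12.8 and 13.8 CPM, and was at 37.9, 27.7, 55.6 and 36.3 CPM with IL4 (1.29 ± 0.22, adjusted p = 0.0282).

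The 7 genes called lower were TDRD6, RGS18, FGD4, PKHD1L1, MACC1, ST8SIA5-DT and ENSG00000187951, which has no symbol in the files. TDRD6, a Tudor domain protein known from germ cells, was at 5.31, 4.78, 4.33 and 26.2 CPM untreated and 1.64, 0.825, 0.509 and 8.47 CPM with IL4 (-2.35 ± 0.39, adjusted p = 0.0242), with DOHH2 the highest library in both groups. RGS18, a regulator of G-protein signalling, was at 16.5, 27.8, 9.3 and 25.1 CPM untreated and 6.83, 4.83, 1.98 and 14.9 CPM with IL4 (-1.85 ± 0.37, adjusted p = 0.047). FGD4, an exchange factor for CDC42, was at 22.3, 5.69, 20.8 and 148 CPM untreated and 11.6, 2.24, 4.48 and 55.2 CPM with IL4 (-1.64 ± 0.29, adjusted p = 0.0295). MACC1 was at 111, 207, 68.7 and 109 CPM untreated and 77.4, 94.7, 41.5 and 66.2 CPM with IL4 and fell by 0.94 on the log2 scale (adjusted p = 0.0491). In all 7 the groups overlapped. Without the block no expressed gene was called lower. RGS18, PKHD1L1, MACC1 and ST8SIA5-DT lost the call in every fit with a line left out.

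Most of the calls lay among the new transcripts. Of the 554, 414 are protein coding, 63 are long noncoding RNAs, 53 are immunoglobulin variable segments and 3 are immunoglobulin constant genes, and OCILY7 was the highest AAVS IL4 library for 509. Summed over all genes of the class, they made up 1174.7, 1557.5, 1256.65 and 2298.94 CPM of the AAVS baseline libraries and 9208.73, 4473.49, 17411.43 and 4349.23 CPM of the AAVS IL4 libraries, against 957.88 to 1522.29 CPM in the CREBBP libraries. The split caps each gene at 1 CPM outside the AAVS IL4 group and so favours this contrast, which gives the size only. The immunoglobulin variable segments did not follow all lines: of 145 segments, 95, 4, 98 and 12 reached 1 CPM in the AAVS IL4 libraries, 0, 3, 2 and 4 in the AAVS baseline and 2 to 7 in the CREBBP libraries. As background, the cells of a B-cell clone share their rearranged segments and use very few of them.

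By the naming rule the 8 new transcripts with the highest mean level were IGHM, CD44, IGLC7, HIPK2, YBX3, SRGN, SOCS3 and IGHD. IGHM, the constant region of IgM, had no count in any AAVS baseline library and was at 951, 711, 1711 and 138 CPM with IL4, at least 46130-fold above 3 counts over the baseline group. IGHD, its neighbour for IgD, likewise had none and was at 59, 15.9, 126 and 6.98 CPM with IL4 (at least 2523-fold). In the CREBBP libraries IGHM was at 0.0696 CPM or less, with or without IL4. IGLC7, a lambda light chain constant gene, was at 0.0535, 0, 0.0616 and 0.0573 CPM untreated and 178, 276, 259.7 and 0.0629 CPM with IL4, so that DOHH2 did not share this rise beyond its baseline. Immunoglobulin constant genes have near-identical copies, and the split of reads between them is uncertain. Of 12 expressed immunoglobulin constant genes only IGHE was called, although 10 were positive and the median was 2.06. All expressed genes tested had 1.21% called higher and 39.3% positive. IGHG1 was at 217, 128, 270.1 and 212 CPM untreated and 3215, 148, 6548 and 234 CPM with IL4, far higher in SUDHL4 and OCILY7 alone (adjusted p = 0.269). CD44, the hyaluronan receptor of activated and memory lymphocytes, was at 0.0356, 0.0981, 0.0205 and 0.0955 CPM untreated and 455, 67.5, 941 and 158 CPM with IL4 (11.96 ± 0.85, adjusted p = 0.00121). HIPK2, a nuclear kinase, was at 0.143, 0, 0.267 and 0 CPM untreated and 154, 50.1, 338 and 122 CPM with IL4 (10.58 ± 0.69, adjusted p = 0.000874), and SRGN, the granule proteoglycan serglycin, at 0.339, 0.0981, 0.636 and 0.286 CPM untreated and 68.2, 19.1, 132 and 28.2 CPM with IL4 (7.18 ± 0.30, adjusted p = 0.000247). YBX3, a cold shock protein, rested on 1 baseline count and was at 66.1, 3.01, 209 and 7.94 CPM with IL4.

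Defining genes of T cells, epithelium and red cells were called higher in the AAVS IL4 libraries, and those of stroma were not. Over all genes tested, 1.21% of the expressed and 9.29% of the new ones were called higher, and the split favours higher values in the new class. Of 14 T-cell markers, all were tested and 10 were called, 7 of them new transcripts, among them CD2 (no count at baseline, 5.27, 1.89, 7.68 and 0.566 CPM with IL4), CD3D (4.06, 1.24, 6.82 and 0.44 CPM with IL4), CD28, TRBC1 and IL7R. Of 8 natural killer cell markers 5 were tested and 2 called (NKG7 and GNLY), with a summed level of 0.595 to 2.27 CPM at baseline and 4.80 to 22.3 CPM with IL4. Monocyte and macrophage markers had 1 call of 8 tested, LYZ, with 4.24 to 13.8 and 7.69 to 29.8 CPM summed over 12 genes, and MARCO was at 0. Their sum was higher with IL4 in SUDHL4, SUDHL10 and OCILY7 and not in DOHH2, at 13.8 CPM untreated and 13.4 CPM with IL4. Epithelial markers had 2 calls of 3 tested (KRT5 and CDH1), at 0.0178 to 0.191 and 2.62 to 37.3 CPM, with KRT19 at 0. Erythroid and platelet markers had 3 calls of 4 tested, the haemoglobin genes HBA1, HBA2 and HBB, at 0.0205 to 1.51 and 3.98 to 20.7 CPM, with PPBP and PF4 at 0. Stromal and endothelial markers had 0 calls of 5 tested with edgeR, at 0.466 to 51.2 and 3.30 to 43.0 CPM, with lower sums with IL4 in OCILY7 and DOHH2 and CDH5 at 0. In the CREBBP libraries the epithelial markers summed to at most 0.316 CPM and the erythroid and platelet markers to at most 0.894 CPM. Their part in the results was not tested.

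**Figure D5:**
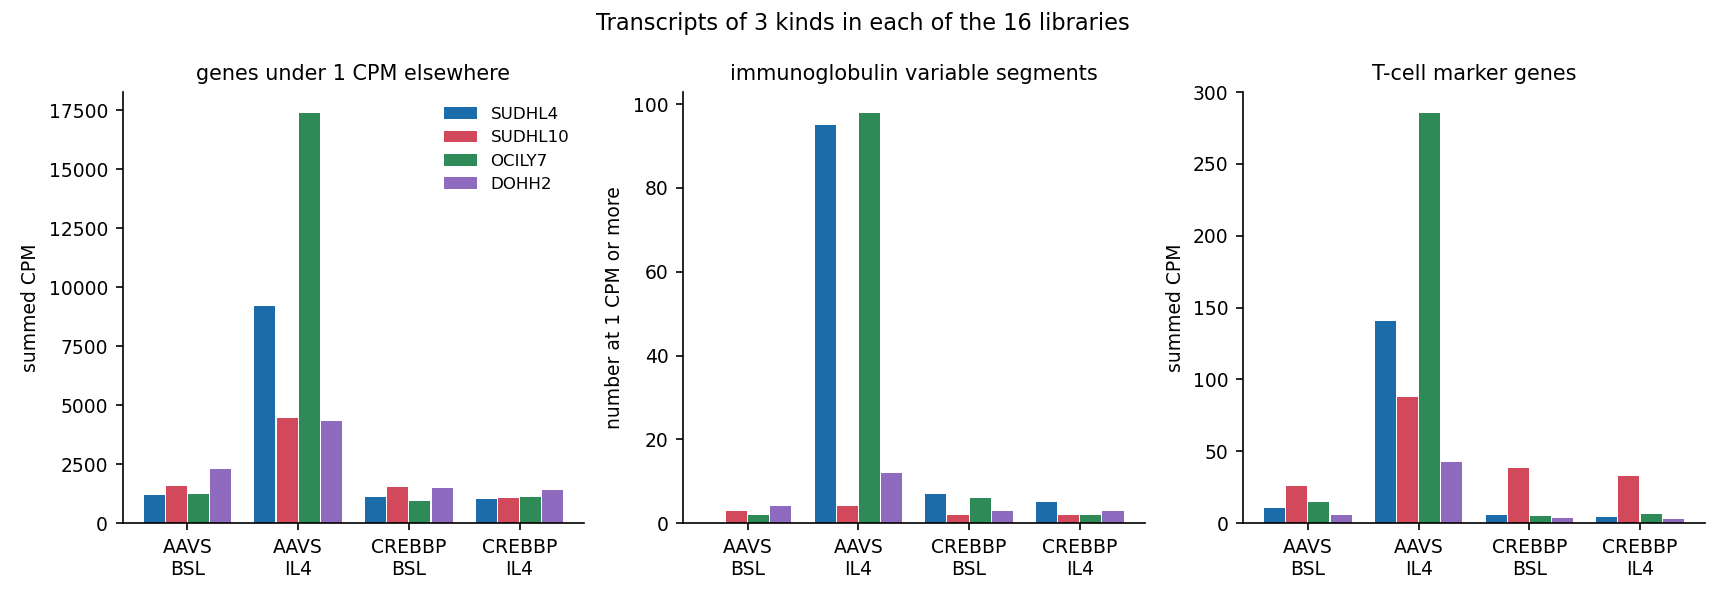
Measures in each of the 16 libraries, grouped by condition and coloured by line: the summed CPM of genes under 1 CPM elsewhere, the number of immunoglobulin variable segments at 1 CPM or more, and the summed CPM of the T-cell markers. The AAVS IL4 libraries lie highest in the first panel, up to 17411.43 CPM in OCILY7, and SUDHL4 and OCILY7 with IL4 stand alone in the second with 95 and 98 segments.

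To ask whether this response differed from that of the CREBBP-targeted pools, the difference of the responses was tested in a model of all 16 libraries. The response was larger in the AAVS pools for 182 of 24532 genes tested (0.742%) and smaller for 3 (0.0122%), and among the expressed genes it was larger for 118 of 17669 (0.668%) and smaller for 3 (0.017%). Among the new genes it was larger for 64 of 6863. Their low level in the CREBBP libraries is part of the split, so these 64 are a description and no test. In the CREBBP pools alone, 0 of 20976 genes were called with edgeR, with 291 higher and 245 lower at an unadjusted p under 0.05. Of the 213 expressed genes called in the AAVS pools, 212 had the larger response there and 108 were also called in the difference, and of the 51 at 5 CPM or more in each baseline library 30 were. Both comparisons use the same AAVS libraries, so the calls are not independent. TNFAIP3 differed by 3.52 ± 0.30 on the log2 scale (adjusted p = 0.000181), and in the CREBBP pools it was at 14.2, 77.6, 8.01 and 4.36 CPM untreated and 11.9, 44.5, 10.2 and 3.94 CPM with IL4. SLC2A3 (4.29 ± 0.32, adjusted p = 7.78e-05), HLA-B (2.64 ± 0.42, adjusted p = 0.0188) and JAK1 (1.44 ± 0.27, adjusted p = 0.0357) were called in the difference too. For QSOX1 it was 1.95 ± 0.39 (adjusted p = 0.043). The count of 182 was 17 without SUDHL4, 318 without SUDHL10, 21 without OCILY7 and 139 without DOHH2, and 2 without the line block.

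For several IL4 targets the difference did not pass the test. It was 5.29 ± 1.57 for CISH (adjusted p = 0.186), 2.66 ± 0.57 for NFIL3 (0.0611), 2.10 ± 0.67 for FCER2 (0.22), 4.13 ± 1.08 for MOB3C (0.124) and 1.74 ± 0.49 for IL4R (0.155). In the CREBBP pool of SUDHL10, a single library per condition, CISH, FCER2 and MOB3C were higher with IL4, as were KMO and CD83. These genes do not stand for their lists. Over expressed members, the median difference in log2(CPM + 1) in that pool was 0.20 for the core IL4 programme. It was -0.44 for the classic targets and -0.77 for the IL4 receptor, JAK, STAT and SOCS list. CISH was at 0.205 CPM without and 3.83 CPM with IL4 there, FCER2 at 7.26 and 21.3 CPM, MOB3C at 5.51 and 13.9 CPM, KMO at 11.3 and 51.0 CPM and CD83 at 70.0 and 133 CPM. In the other CREBBP pools CISH stayed at or below 0.328 CPM. The share of counts from the 7SK and 7SL RNAs was 5.09 to 6.87% in the AAVS baseline, 6.97 to 10.68% in the AAVS IL4 and 4.41 to 18.09% in the CREBBP libraries, highest in SUDHL10 with IL4, and its part in these values was not tested.

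The named calls depended on the lines in the fit. Of 111 named genes called in the AAVS pools, 23 kept the call whichever line was left out, 88 lost it without SUDHL4, 10 without SUDHL10, 22 without OCILY7 and 55 without DOHH2, and none changed direction. The 23 included TNFAIP3, IRF4, AHNAK, CCR7, SLC2A3 and IGHE among the expressed genes, and IGHM, IGHD, CD44, SOCS3, IL6 and CCL22 among the new ones. By contrast, 8 genes kept the call in 0 of these fits, among them HLA-E, TRAF1, RGS18 and MACC1.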

How the data were processed

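Total RNA of 16 pools of 4 lymphoma lines was sequenced by the authors as paired-end reads after depletion of ribosomal RNA. Per the labels and the methods, reads were trimmed with Cutadapt 2.3, mapped to GRCh38 with STAR 2.7.8a and assigned to genes with RSEM 1.3.3. The deposited values are estimated counts, stored by the authors as whole numbers without normalization, and were used as they stand. The labels' genome entries also name hg38. Of 62714 rows, 4 name reporter sequences and held 0 counts, and were left out. Positions and gene types come from GENCODE 44 on GRCh38.

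CPM values were computed from each library's total. The 4 AAVS IL4 libraries were compared with the 4 AAVS baseline libraries with edgeR 4.0.16 in R 4.3.3 (filterByExpr with the design, TMM factors, quasi-likelihood test, Benjamini-Hochberg adjustment, threshold 0.05), with the line as a block, since a replicate number stands for a line. Deviations of same-line libraries from their group means correlated at 0.6821, 0.7275, 0.1162 and 0.6512. Between different lines they correlated at -0.5396 to 0.4994. The highest of these, OCILY7 at baseline with SUDHL4 with IL4, was above the same-line value of OCILY7. The difference of response was fitted over 16 libraries, each pool having its own term. The study names DESeq2, which was run as an alternative (1.42.0), as was limma-voom (3.58.1). DESeq2 values of NA were left out. Further alternatives were other scalings, filters and splits, no block, and each line left out. The tests were tested on simulated counts.

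Each line gave 1 library per condition, so p-values measure the spread between lines. Replicates were no copies of each other (chi-square per degree of freedom at least 98.67). Intervals and the floor of 3 counts cover counting error only.

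The members and the gene lists were chosen with earlier results of these data known. Named genes are, among protein coding calls of expressed genes, the 15 that rose most and at most 10 that fell most, the 8 new transcripts with the highest mean level, for each list up to 4 called members or, with fewer than 2 calls, the 2 with the smallest p, every called list member of the new class, and 12 genes of the IL4 pathway. Other list members and genes named were chosen after their values were seen. Immunoglobulin variable segments are given as counts only, and a few genes are not reported here. Promoter sequences are from RefSeq.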

Additional observations from a re-analysis of the deposited data

Results flagged for a closer look

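In 91 genes, the 4 lines of each AAVS group were checked for a library far from the other 3, by Dixon's test, and 11 of 182 groups gave such a library, where chance gives about 1 in 20. At baseline DOHH2 was high for TDRD6 (26.2 CPM), FGD4 (148 CPM) and the germinal centre genes GCSAM (123 CPM) and ELL3 (149.9 CPM), and it was high again with IL4 for TDRD6 (8.47 CPM). SUDHL10 was high at baseline for ANXA2 (2.08 CPM), VIM (4.93 CPM) and CD58 (1.64 CPM), and with IL4 for RRAGD (54.5 CPM). OCILY7 was high at baseline for CCR7 (7.0 CPM) and with IL4 for CD80 (48.1 CPM).

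For 38 named genes the IL4 response differed between AAVS and CREBBP pools in the model of all 16 libraries, with an adjusted p under 0.05 from edgeR. The values are fitted differences of log2 fold changes, AAVS minus CREBBP, and for genes with next to no counts outside the AAVS IL4 libraries their size depends on the prior count. Among the expressed genes with the largest changes they were 12.33 for GLUL, 10.66 for SNX9, 11.54 for RTL6, 9.99 for TP53BP2, 8.02 for DSP, 7.82 for MYADM, 7.30 for ANXA2, 7.68 for AHNAK, 6.69 for IRF4 and 7.71 for VIM. Among other expressed genes of the lists they were 1.95 for QSOX1, 3.16 for HLA-C, 2.64 for HLA-B, 4.17 for ELL2, 4.95 for IGHE, 3.52 for TNFAIP3, 1.90 for BIRC3, 4.14 for NR4A3, 3.43 for FOSL2, 3.27 for FNIP2, 1.40 for IRF9, 4.29 for SLC2A3, 6.42 for CCR7 and 2.39 for GPR183. For the new transcripts they were 18.08 for IGHM, 10.83 for CD44, 10.51 for HIPK2, 12.85 for YBX3, 7.09 for SRGN, 6.88 for SPINT2, 9.78 for IRS2, 10.87 for HLA-F, 7.12 for CR2, 7.42 for NR4A2 and 9.65 for OASL. A level under 1 CPM in the CREBBP libraries is part of how this class was drawn, so a larger response in the AAVS pools was favoured in advance. The difference was negative, with the lower response in the AAVS pools, for TDRD6 (-2.65), RGS18 (-2.28) and HMMR (-1.36). CISH, FCER2, NFIL3, MOB3C and IL4R are not among these genes.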

How the results depend on the processing

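The line block is part of the main fit. Without the replicate block 111 expressed genes were called higher, 0 lower and 356 new transcripts higher, against 213, 7 and 554, and the difference of response gave 2 larger and 0 smaller in place of 182 and 3. Leaving out each line in turn gave 22 to 565 expressed genes higher, 0 to 11 lower, 67 to 680 new transcripts higher, 1 to 18 core IL4 members called, and 17 to 318 larger and 0 to 9 smaller differences, lowest without SUDHL4 and highest without SUDHL10. The median of the core IL4 programme stayed between 1.58 and 2.42. With no filter the counts were 733, 100, 1018 and 19 core members, with 1021 and 170 differences. With at least 10 counts in every library they were 24, 0, 1 and 1. DESeq2 gave 1094, 324, 1177 and 21, with 917 and 217 differences, and limma-voom gave 410, 26, 881 and 17. The calls lower were 4 with upper-quartile factors, 4 with TMM factors from expressed genes and 3 with the filter by treatment group, chosen after seeing the data, which left 314 new transcripts called. RLE factors gave 5 smaller differences. A split at 5 CPM left 121 expressed genes higher, and genes at 5 CPM or more in each baseline library, chosen after seeing the data, gave 51. Of 111 named calls none was reversed in any of these settings, and DESeq2, limma-voom and the fit with no filter kept them all. Among uncalled genes near 0 the sign of the fit turned. BCL6 (main -0.00668) was at 0.0485 with RLE factors and with DESeq2, 0.126 with upper-quartile factors, 0.0927 with TMM factors from expressed genes, 0.101 with 10 counts in every library, 0.0954 without the block and 0.0978 with the filter by group, and at 0.0365 to 0.0913 with lines left out. CREBBP (main -0.0298) was at 0.0255 with RLE factors, 0.0256 with DESeq2, 0.104 with upper-quartile factors, 0.0697 with TMM factors from expressed genes, 0.0779 with 10 counts in every library, 0.0592 without the block and 0.0752 with the filter by group, and at -0.132 to 0.168 with lines left out. STAT6 (main -0.226) ran from -0.308 to 0.0611 with lines left out. Depth limits low genes most in the AAVS IL4 libraries of OCILY7 and SUDHL4, whose totals were the smallest of the 16.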
